A study of Homo sapiens with 27 samples.

Results

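The 9 genes described here encode the enzymes that make serine from glucose and pass its carbon units to folate: PHGDH, PSAT1, PSPH, SHMT1, SHMT2, MTHFD1, MTHFD2, MTHFD1L and ALDH1L2. They were chosen by name for their place in the pathway, with earlier results of these data known, as 9 of 21487 genes in the count table. All 9 were among the 13943 genes that passed the filter on low counts. The cells were of the Panc1 line, which was established from a human pancreatic ductal adenocarcinoma, and the design concerns the effect of ARNT, the partner subunit of the hypoxia-inducible factors, on the response to low oxygen. ARNT KO Clone B, ARNT KO Clone A and parental cells were each held for 48 hours in hypoxia (1% O2) with pancreatic TIFM, in hypoxia with regular medium (DMEM with serum), or in normoxia (20% O2) with regular medium. Each of these 9 groups had 3 libraries of polyA RNA, 27 in all. TIFM, whose composition follows tumor interstitial fluid, was never combined with normoxia, and its libraries are set against those of hypoxia in regular medium. Each knockout genotype was 1 clone made with CRISPR-Cas9, so a difference between a clone and parental cells cannot be told apart from a difference between single-cell derived lines. No label says that the 3 libraries of a group came from separate cultures. P-values therefore measure only a spread between libraries, which the main fit estimated over all 9 groups together.

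Serine synthesis branches from glycolysis: PHGDH oxidises 3-phosphoglycerate, PSAT1 transfers an amino group to the product, and PSPH removes the phosphate to give serine. SHMT1 in the cytosol and SHMT2 in mitochondria split serine into glycine and a carbon unit carried by folate. In mitochondria MTHFD2, MTHFD1L and ALDH1L2 turn that unit into formate or carbon dioxide, and in the cytosol MTHFD1 takes formate back into folate for purine and thymidylate synthesis. ATF4, a stress-induced transcription factor, is a well-known activator of several of these genes.

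Promoters of 6 of the 9 genes were found in the RefSeq table (GRCh38.p14), namely PHGDH, PSAT1, SHMT1, MTHFD1, MTHFD2 and MTHFD1L; PSPH, SHMT2 and ALDH1L2 were not among them. The following 4 windows of 300 bases, from 250 bases before to 50 bases after the annotated start, are shown because these genes had the 4 lowest adjusted p among the 9 for hypoxia in parental cells. All 4 lie on the plus strand: PHGDH at chr1:119711684-119711983, PSAT1 at chr9:78296875-78297174, MTHFD1L at chr6:150866236-150866535 and MTHFD1 at chr14:64388103-64388402. Capitals mark matches to TGATGNAA, a composite element that ATF4 is known to bind, and to CACGTG, the E-box bound by MYC and related factors.
PHGDH: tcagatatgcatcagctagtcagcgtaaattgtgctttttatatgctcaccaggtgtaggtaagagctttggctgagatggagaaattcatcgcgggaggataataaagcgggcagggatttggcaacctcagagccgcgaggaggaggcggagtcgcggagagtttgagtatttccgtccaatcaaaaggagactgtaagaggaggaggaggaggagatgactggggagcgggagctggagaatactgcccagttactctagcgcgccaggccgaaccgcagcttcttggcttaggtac
PSAT1: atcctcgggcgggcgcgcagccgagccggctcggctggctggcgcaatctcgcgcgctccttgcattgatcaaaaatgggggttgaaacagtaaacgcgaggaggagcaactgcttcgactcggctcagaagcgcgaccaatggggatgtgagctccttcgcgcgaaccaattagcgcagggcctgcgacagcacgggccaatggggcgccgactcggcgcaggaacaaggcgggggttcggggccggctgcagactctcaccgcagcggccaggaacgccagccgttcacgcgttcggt
MTHFD1L: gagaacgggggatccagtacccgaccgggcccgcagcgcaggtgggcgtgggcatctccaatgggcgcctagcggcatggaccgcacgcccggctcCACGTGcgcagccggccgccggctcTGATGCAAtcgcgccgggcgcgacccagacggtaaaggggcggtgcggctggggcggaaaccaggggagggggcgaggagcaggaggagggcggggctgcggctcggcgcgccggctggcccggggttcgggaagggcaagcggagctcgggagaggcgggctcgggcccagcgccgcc
MTHFD1: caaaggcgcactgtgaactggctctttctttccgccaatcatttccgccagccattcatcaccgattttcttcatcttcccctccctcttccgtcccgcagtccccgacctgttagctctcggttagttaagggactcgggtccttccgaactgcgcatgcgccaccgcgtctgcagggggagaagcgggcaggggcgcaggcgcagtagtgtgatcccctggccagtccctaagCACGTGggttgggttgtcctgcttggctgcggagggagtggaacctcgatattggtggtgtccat
Both strands were searched. TGATGNAA was found in 1 of the 6 promoters, that of MTHFD1L, where its first base lay at -129 from the start, against 3.67% of all 27305 promoters in the table. CACGTG was found in 2 of 6, at -154 in MTHFD1L and at -15 in MTHFD1, against 7.43% of promoters. The core of the hypoxia response element, searched as ACGTG (which lies within CACGTG) and GCGTG, was present in 3 of 6 promoters each, against 21.6% and 36.3%. Matches are letters in these windows, not measured binding sites.

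Total counts ran from 26057022 to 38341713 a library (median 31727174). Levels are given in CPM, the usual count share of a gene in its library, with TMM factors applied to the library sizes, and a gene was called when its Benjamini-Hochberg adjusted p in edgeR's quasi-likelihood test over 13943 genes was under 0.05. The spread between libraries, as a biological coefficient of variation, was 22% in hypoxic TIFM, 9.59% in hypoxia and 6.97% in normoxia. Replicate 1 of clone A in hypoxia was the lowest of its group for 8 of the 9 genes (all but SHMT1), and replicate 1 of clone A in hypoxic TIFM was the lowest of its group for 7 of the 9 (all but MTHFD2 and ALDH1L2); the clone A results are given below without them where a gene or ratio rests on them. The TMM factors of clone A in hypoxic TIFM were 0.8905, 0.833 and 0.7773 for replicates 1, 2 and 3. They raise the CPM of replicates 2 and 3 relative to replicate 1, and the order without them was not examined. ARNT was transcribed in every library. In normoxia ARNT was at 63.9 ± 1.44 CPM in clone B and 75.5 ± 2.19 CPM in clone A, against 71.2 ± 3.62 CPM in parental cells (SD, n = 3 each), and a transcript count does not check the knockout. Neither clone was called different from parental cells in normoxia or hypoxia. In hypoxic TIFM ARNT was called lower in clone B (log2 -0.39 ± 0.09, SE, adjusted p = 0.000627). It was also called lower there in clone A (-0.21 ± 0.09, adjusted p = 0.0407), whose libraries overlapped with parental ones. All 8 marker genes of Panc1, among them KRT8, KRT18 and VIM, were expressed in every library, and their summed level was lower in hypoxic TIFM (3043 to 4188 CPM in clone B, 3121 to 4982 in clone A and 5725 to 7420.5 in parental cells) than in hypoxia (11545 to 13701, 7539.9 to 7872 and 11651 to 12303 CPM in the same order). That sum is weighted to VIM (1855 to 5996 CPM) and KRT8 (257 to 5535 CPM), and the 8 did not move together. With TIFM 2 were called higher and 4 lower in clone B (25.9% and 27.9% of all tested genes). In clone A 1 was higher and 4 lower (33% and 34.2%), and in parental cells 3 and 4 (21.8% and 20.4%). Of 10 markers of other cell types, INS was at 0 in all 27 libraries and PRSS1 at 0 in 25, while CD68 (76.6 to 296 CPM) and COL1A1 (20.7 to 888 CPM) were expressed. None of the others exceeded 8.66 CPM (ALB), so the sum of the 10 rests mostly on CD68 and COL1A1. The summed level of those 10 was 1011 to 1034 CPM in clone B and 274 to 296 CPM in clone A, against 117 to 134 CPM in parental cells in normoxia; it was 805 to 889 and 220.3 to 280.5, against 165 to 181 CPM in hypoxia, and 293 to 339 and 189 to 336, against 129 to 158 CPM in hypoxic TIFM. The part of these markers in the results below was not tested. In bulk RNA, fewer cells of a type and less RNA per cell cannot be told apart.

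PSAT1 was the most abundant of the 9 transcripts per kilobase of exon, and PHGDH and PSAT1 spanned the widest range. In parental cells in normoxia PSAT1 was at 60.6 CPM per kilobase, PSPH at 28.1, MTHFD2, MTHFD1L and MTHFD1 between 20.0 and 20.6, SHMT2 at 11.6, SHMT1 at 3.76 and PHGDH at 3.18. ALDH1L2 was at 0.0505 CPM per kilobase there. With the longest transcript in place of all exons, PHGDH was at 9.21 CPM per kilobase and still had rank 8 of 9. In clone A in hypoxic TIFM PSAT1 was at 733 CPM per kilobase and PHGDH at 46.8, which gave PHGDH rank 4; with the longest transcript PHGDH was at 136 CPM per kilobase there and had rank 2. The highest group mean was 14.7 times the lowest for PHGDH and 12.1 times the lowest for PSAT1, in both cases clone A in hypoxic TIFM against parental cells in normoxia. For the other 7 genes the ratio lay between 2.02 (PSPH) and 3.15 (MTHFD1L). ALDH1L2, a mitochondrial enzyme that releases formate units as carbon dioxide, had 0.193 to 1.37 CPM, or 6 to 34 counts a library, so its values are read with caution throughout.

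**Figure D1:**
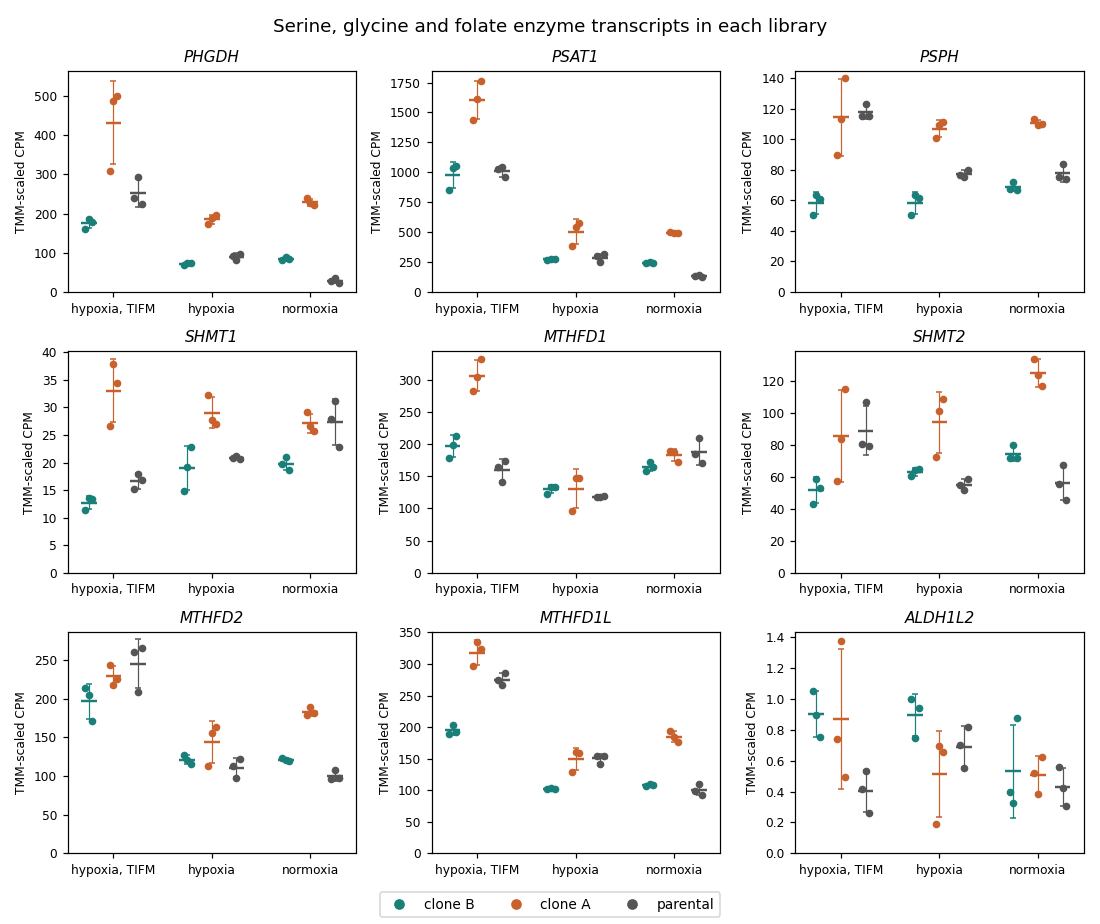
TMM-scaled CPM (y axis, from 0) of each of the 9 genes in every library, by condition and genotype; points are libraries, horizontal bars the mean and whiskers the SD of 3 libraries. PHGDH and PSAT1 are lowest in parental cells in normoxia and highest in clone A in hypoxic TIFM, and ALDH1L2 stays under 1.4 CPM.

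Hypoxia in parental cells raised both PHGDH and PSAT1, the enzymes at the head of serine synthesis, and left PSPH without a call. PHGDH (chromosome 1, 119648411 to 119744226, plus strand) had 91.8, 80.4 and 98.0 CPM in hypoxia, against 29, 34.9 and 24 CPM in normoxia. Every hypoxic library was above every normoxic one, a log2 change of 1.62 ± 0.15 (SE, adjusted p = 8.16e-09). PSAT1 (chromosome 9, 78297143 to 78330093, plus strand) had 299, 247 and 314 CPM in hypoxia, against 135, 142 and 122 CPM in normoxia. Its groups did not overlap either, and it rose by 1.11 ± 0.12 (adjusted p = 1.58e-07). PSPH (chromosome 7, 56011051 to 56051604, minus strand) had 76.8, 75.1 and 80.0 CPM in hypoxia, against 75.2, 83.8 and 74.0 CPM in normoxia, and these overlapped (log2 -0.01 ± 0.12, adjusted p = 0.975).

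The folate enzymes moved in opposite directions in parental cells: mitochondrial MTHFD1L rose with hypoxia while the cytosolic MTHFD1 fell. MTHFD1L (chromosome 6, 150865549 to 151101887, plus strand), which releases formate from folate in mitochondria, had 155, 142 and 155 CPM in hypoxia, against 99.5, 109.7 and 93.2 CPM in normoxia. The groups stood apart, a rise of 0.58 ± 0.09 (adjusted p = 1.92e-05). MTHFD1 (chromosome 14, 64388031 to 64463457, plus strand), the cytosolic enzyme with 3 activities that recaptures formate, had 117, 117 and 119 CPM in hypoxia, against 184, 209.8 and 169.9 CPM in normoxia. All hypoxic libraries were below all normoxic ones, and MTHFD1 fell by 0.67 ± 0.13 on the log2 scale (adjusted p = 0.000224). SHMT1 (chromosome 17, 18327860 to 18363563, minus strand), the cytosolic serine hydroxymethyltransferase, had 20.9, 21.1 and 20.6 CPM in hypoxia, against 27.9, 31.2 and 22.9 CPM in normoxia. It fell by 0.39 ± 0.14 (adjusted p = 0.0412), a call lost without normoxia replicate 1 or 2 or without any 1 of the 3 hypoxia libraries (adjusted p up to 0.199) and with no filter on low counts (adjusted p = 0.0534). SHMT2 (chromosome 12, 57229327 to 57234935, plus strand), its mitochondrial counterpart, averaged 55.1 ± 3.35 CPM in hypoxia and 56.3 ± 10.9 CPM in normoxia (SD, n = 3 each; adjusted p = 0.917). MTHFD2 (chromosome 2, 74198562 to 74217565, plus strand), the mitochondrial dehydrogenase and cyclohydrolase, averaged 111 ± 12.1 CPM in hypoxia and 101 ± 6.72 CPM in normoxia (adjusted p = 0.403). ALDH1L2 (chromosome 12, 105019784 to 105084577, minus strand) did not pass the test (0.69 ± 0.132 CPM in hypoxia and 0.429 ± 0.125 CPM in normoxia, adjusted p = 0.248). In all, 3 of the 9 genes rose and 2 fell, where 15.4% of all tested genes rose and 14.9% fell; the median log2 change was 0.14 over the 9 and 0.00 over all genes tested.

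In the knockout clones none of the 9 genes passed edgeR's test as higher with hypoxia. In clone B 0 of 9 were higher and 0 lower, where 4.46% and 4.84% of tested genes were; 1 of the 9, MTHFD1, was below an unadjusted p of 0.05. DESeq2 also called 0 of 9, whereas limma voom with sample weights called 4 and edgeR on only the libraries compared called 4. PHGDH had 69.3, 73.3 and 73.5 CPM in hypoxia, against 80.7, 88.8 and 83.0 CPM in normoxia in clone B (log2 -0.22 ± 0.14, adjusted p = 0.355), with the hypoxic libraries all lower. PSAT1 had 270.0, 277 and 272 CPM in hypoxia, against 242, 254 and 242 CPM in normoxia in clone B (0.15 ± 0.12, adjusted p = 0.473). MTHFD1 had 123, 134 and 133 CPM in hypoxia, against 158, 172 and 164 CPM in normoxia in clone B, with no overlap, a log2 difference of -0.34 ± 0.13 that missed the threshold (adjusted p = 0.0871). Both settings that called 4 genes called MTHFD1 and PHGDH lower with hypoxia in clone B, and with only the libraries compared PSAT1 was called higher (0.18, adjusted p = 0.0169).

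In clone A 3 of 9 genes fell with hypoxia and 0 rose, where 11.8% and 10.4% of tested genes did, and all 3 calls were lost without 1 library. MTHFD1 had 95.4, 148 and 148 CPM in hypoxia, against 189, 187 and 172 CPM in normoxia. MTHFD2 had 113, 156 and 164 CPM in hypoxia, against 179, 189 and 181 CPM in normoxia. MTHFD1L had 129, 161 and 159 CPM in hypoxia, against 194, 185 and 176 CPM in normoxia. The first value of each hypoxic set, replicate 1, was the lowest, though none of the 3 sets overlapped with normoxia. The log2 changes were -0.48 ± 0.13 for MTHFD1 (adjusted p = 0.00742), -0.34 ± 0.12 for MTHFD2 (adjusted p = 0.0439) and -0.31 ± 0.09 for MTHFD1L (adjusted p = 0.0141). Without clone A hypoxia replicate 1 they were -0.30, -0.19 and -0.21, with adjusted p of 0.0622, 0.28 and 0.105, and 0 of the 9 genes passed. MTHFD2 also lost its call without clone A normoxia replicate 1, 2 or 3, and with RLE factors (adjusted p = 0.0581) or only the libraries compared (adjusted p = 0.0572); MTHFD1L lost its call without clone A normoxia replicate 1. PHGDH had 173, 189 and 195 CPM in hypoxia, against 239, 226 and 222 CPM in normoxia in clone A, lower in every library but not called (log2 -0.30 ± 0.14, adjusted p = 0.133). Limma voom and edgeR on only the libraries compared did call PHGDH lower with hypoxia in clone A (adjusted p of 0.0035 and 0.00781), and SHMT2 as well (-0.27 and -0.38, adjusted p of 0.0111 and 0.0473). PSAT1 had 388, 544 and 580.4 CPM in hypoxia, against 503, 496 and 492 CPM in normoxia in clone A, which overlapped (0.02 ± 0.12, adjusted p = 0.926).

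Whether a clone responded to hypoxia differently from parental cells was tested as an interaction. In edgeR's test on all libraries the same 3 genes passed in both clones, all with a lower response: PHGDH, PSAT1 and MTHFD1L. Across all tested genes the response was lower in 3.24% and higher in 1.49% for clone B, and lower in 4.04% and higher in 2.19% for clone A. For PHGDH the difference in log2 response was -1.85 ± 0.21 in clone B (adjusted p = 9.63e-07) and -1.92 ± 0.21 in clone A (adjusted p = 4.45e-07). For PSAT1 it was -0.96 ± 0.17 in clone B (adjusted p = 0.000663) and -1.09 ± 0.17 in clone A (adjusted p = 0.000123). For MTHFD1L it was -0.66 ± 0.12 in clone B (adjusted p = 0.00143) and -0.88 ± 0.12 in clone A (adjusted p = 3.44e-05). Leaving out any 1 of the 12 libraries of either comparison ended none of these 6 calls; without clone A hypoxia replicate 1 the clone A values were -1.87, -0.93 and -0.79. MTHFD1, which fell in parental cells, had a difference of 0.33 ± 0.18 in clone B (adjusted p = 0.375) and 0.19 ± 0.18 in clone A (adjusted p = 0.625), so it did not pass edgeR's test on all libraries. Limma voom called the difference for MTHFD1 in both clones (0.33 with adjusted p = 0.0047 in clone B and 0.30 with adjusted p = 0.00675 in clone A), and edgeR on only the libraries compared called it in clone B (0.33, adjusted p = 0.0228). In clone A these 2 settings also called MTHFD2 lower (-0.41 and -0.47, adjusted p of 0.000571 and 0.0355). They called SHMT1 higher there (0.44 and 0.49, adjusted p of 0.00218 and 0.0236). In clone B limma voom called SHMT1 higher (0.36, adjusted p = 0.0195) and PSPH lower (-0.22, adjusted p = 0.0465). Both clones are compared with the same parental libraries, and the parental normoxia libraries also enter the comparison of genotypes in normoxia below, so these results are not independent.

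**Figure D2:**
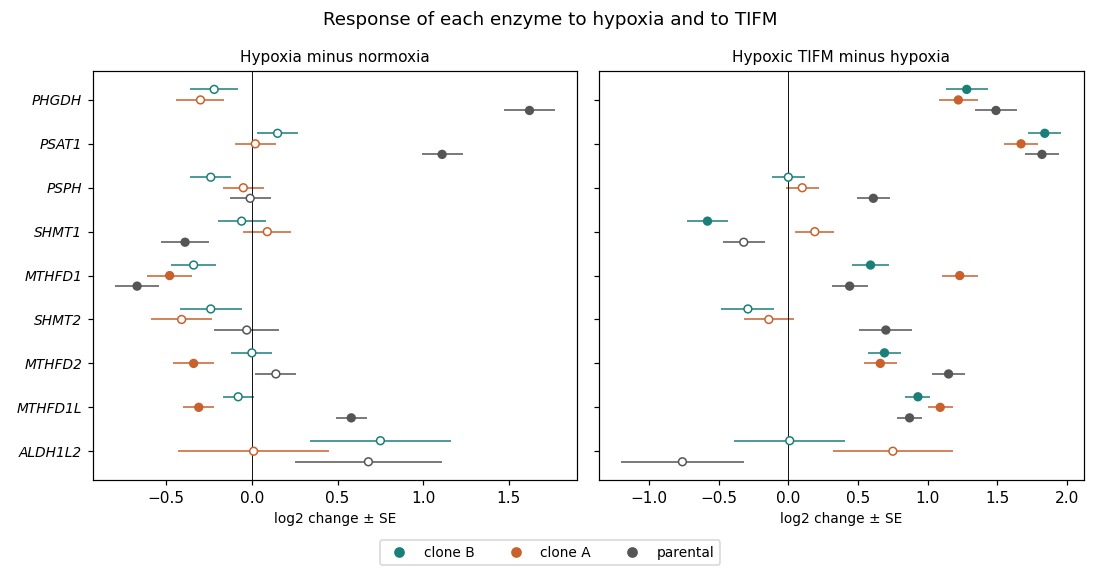
Log2 change with hypoxia (left, hypoxia minus normoxia) and with TIFM under hypoxia (right, TIFM minus regular medium) for the 9 genes in clone B, clone A and parental cells; points are fitted values, bars the SE, and filled points passed the test. PHGDH, PSAT1 and MTHFD1L have filled points above 0 for hypoxia in parental cells and in neither clone, and for TIFM in all 3 genotypes.

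TIFM under hypoxia raised 5 of the 9 genes in all 3 genotypes: PHGDH, PSAT1, MTHFD1, MTHFD2 and MTHFD1L. In parental cells 7 of 9 genes rose with TIFM and 0 fell, where 21.8% of tested genes rose and 20.4% fell. In clone B 5 rose and 1 fell (25.9% and 27.9% of tested genes), and in clone A 5 rose and 0 fell (33% and 34.2%). The median log2 change of the 9 was 0.59 in clone B, 0.75 in clone A and 0.70 in parental cells, while over all tested genes it was -0.03, -0.03 and 0.00.

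PSAT1 had the largest log2 change with TIFM among the 9 in each genotype. It had 1027, 1045 and 957 CPM in TIFM, against 299, 247 and 314 CPM in regular medium in hypoxic parental cells. In clone B PSAT1 had 855, 1035 and 1051 CPM in TIFM, against 270.0, 277 and 272 CPM in regular medium. Every TIFM library was over 3 times the regular-medium libraries of clone B, and the log2 change was 1.84 ± 0.12 in clone B, 1.67 ± 0.12 in clone A and 1.82 ± 0.12 in parental cells (adjusted p of 9.74e-12, 1.08e-11 and 2.87e-11), and 1.51 in clone A without hypoxia replicate 1. In clone A PSAT1 had 1437, 1614 and 1761 CPM in TIFM, against 388, 544 and 580.4 CPM in regular medium. PHGDH had 239, 294 and 224 CPM in TIFM, against 91.8, 80.4 and 98.0 CPM in regular medium in parental cells. In clone B it had 161, 187 and 178 CPM in TIFM, against 69.3, 73.3 and 73.5 CPM in regular medium. None of these groups overlapped. In clone A PHGDH had 309, 487 and 499 CPM in TIFM, against 173, 189 and 195 CPM in regular medium, with replicate 1 lower than the other TIFM libraries. PHGDH rose by 1.28 ± 0.15 in clone B, 1.22 ± 0.14 in clone A and 1.49 ± 0.15 in parental cells (adjusted p of 6.68e-08, 5.4e-08 and 1.61e-08), and by 1.41 in clone A without TIFM replicate 1.

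MTHFD1L and MTHFD2 rose with TIFM in all 3 genotypes as well. MTHFD1L had 189.7, 204 and 193 CPM in TIFM, against 102, 103 and 102 CPM in regular medium in clone B. Its TIFM libraries stood at 296, 335 and 323 CPM, against 129, 161 and 159 CPM in regular medium, in clone A, and at 274, 266 and 286 CPM, against 155, 142 and 155 CPM, in parental cells. The log2 rise was 0.93 ± 0.09 in clone B, 1.09 ± 0.09 in clone A and 0.87 ± 0.09 in parental cells, with no overlap in any genotype; in clone A it was 0.99 without hypoxia replicate 1 and 1.14 without TIFM replicate 1. MTHFD2 had 261, 209 and 266 CPM in TIFM, against 113, 97.8 and 122 CPM in regular medium in parental cells, a rise of 1.15 ± 0.12 (adjusted p = 5.66e-08). In clone B it had 214, 205 and 171 CPM, against 127, 121 and 116 CPM, a rise of 0.69 ± 0.12, and in clone A 244, 218 and 225 CPM, against 113, 156 and 164 CPM, a rise of 0.66 ± 0.12 (0.52 without clone A hypoxia replicate 1 and 0.62 without TIFM replicate 1). Each TIFM library of MTHFD2 was above each regular-medium library of its genotype.

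MTHFD1, which had fallen with hypoxia in parental cells, rose with TIFM in all 3 genotypes. In parental cells it had 165, 141 and 173 CPM in TIFM, against 117, 117 and 119 CPM in regular medium (log2 0.44 ± 0.13, adjusted p = 0.00638). In clone B it had 178, 199 and 212 CPM, against 123, 134 and 133 CPM (0.59 ± 0.13, adjusted p = 0.00031), and in clone A 283, 304 and 332 CPM, against 95.4, 148 and 148 CPM (1.23 ± 0.13, adjusted p = 5.29e-09, and 1.04 without clone A hypoxia replicate 1). The rise was larger in clone A than in parental cells by 0.79 ± 0.18 (adjusted p = 0.00111; 0.60 with adjusted p = 0.0021 without clone A hypoxia replicate 1). SHMT1 fell with TIFM in clone B, where it had 11.3, 13.5 and 13.3 CPM in TIFM, against 14.8, 19.2 and 22.8 CPM in regular medium (-0.58 ± 0.15, adjusted p = 0.00186). It did not pass edgeR's test on all libraries in clone A (0.19 ± 0.14, adjusted p = 0.251, and 0.32 with adjusted p = 0.0483 without TIFM replicate 1) or in parental cells (-0.32 ± 0.15, adjusted p = 0.0735), although all 3 parental TIFM libraries, at 15.2, 18.0 and 16.8 CPM, were below the regular-medium ones, at 20.9, 21.1 and 20.6 CPM. Limma voom called SHMT1 higher with TIFM in clone A (0.43, adjusted p = 0.000357) and lower in parental cells (-0.40, adjusted p = 0.000986). EdgeR on only the libraries compared also called it lower in parental cells (-0.33, adjusted p = 0.0243).

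PSPH and SHMT2 rose with TIFM in parental cells and did not pass the test in either clone. PSPH had 115, 123 and 115 CPM in TIFM, against 76.8, 75.1 and 80.0 CPM in regular medium in parental cells (log2 0.61 ± 0.12, adjusted p = 0.000258). In clone B it had 50.4, 63.3 and 61.2 CPM, against 50.1, 63.7 and 61.3 CPM, which overlapped (log2 0.00 ± 0.12, adjusted p = 0.993). In clone A PSPH had 89.7, 113 and 140.3 CPM, against 101, 109 and 111 CPM (0.10 ± 0.12, adjusted p = 0.498; 0.24 with adjusted p = 0.0469 without TIFM replicate 1). SHMT2 had 80.9, 107 and 79.3 CPM in TIFM, against 54.9, 51.8 and 58.5 CPM in regular medium in parental cells (0.70 ± 0.19, adjusted p = 0.00393). In clone B SHMT2 had 43.0, 58.8 and 53.3 CPM, against 60.5, 64.1 and 64.8 CPM, lower in every library but not called (-0.29 ± 0.19, adjusted p = 0.199). In clone A it had 57.7, 83.6 and 115 CPM, against 72.6, 101 and 109 CPM, which overlapped (-0.14 ± 0.18, adjusted p = 0.503; 0.07 without TIFM replicate 1, and -0.29 with adjusted p = 0.017 by limma voom).

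The TIFM response itself differed from parental cells in 2 of the 9 genes in clone B, both lower (6.34% of tested genes were lower and 4.06% higher), and in 5 in clone A, 2 higher and 3 lower (19.3% and 19.6%). PSPH and SHMT2 were lower in both clones. For PSPH the difference in log2 response was -0.61 ± 0.17 in clone B (adjusted p = 0.0229) and -0.51 ± 0.17 in clone A (adjusted p = 0.0195). For SHMT2 it was -0.98 ± 0.26 in clone B (adjusted p = 0.0173) and -0.84 ± 0.26 in clone A (adjusted p = 0.0129). The clone B calls depended on single libraries: PSPH lost its call without parental hypoxia replicate 1 or 2, parental TIFM replicate 2, clone B hypoxia replicate 2 or 3 or clone B TIFM replicate 1 (adjusted p up to 0.0987), and SHMT2 lost its call without parental TIFM replicate 2 or clone B TIFM replicate 1 (up to 0.0637). No single library ended the clone A calls of PSPH and SHMT2, but fitting only the libraries compared did (adjusted p = 0.0963 and 0.0675); without clone A TIFM replicate 1 the differences were -0.36 for PSPH and -0.62 for SHMT2. In clone A MTHFD1 (0.79, above) and SHMT1 (0.51 ± 0.20, adjusted p = 0.0482) had a higher response and MTHFD2 (-0.48 ± 0.17, adjusted p = 0.0269) a lower one. SHMT1 lost its call without parental hypoxia replicate 1, 2 or 3, parental TIFM replicate 1 or 3, clone A hypoxia replicate 2 or 3 or clone A TIFM replicate 2 or 3 (adjusted p up to 0.143), and MTHFD2 without parental hypoxia replicate 2, parental TIFM replicate 1 or 3, clone A hypoxia replicate 2 or 3 or clone A TIFM replicate 2 (up to 0.094). With only the libraries compared, MTHFD1 alone of the 9 passed in clone A. Limma voom also called the MTHFD2 response lower in clone B (-0.49, adjusted p = 0.000336). The response of ALDH1L2, a gene with few counts, was called higher in clone A under 3 settings. These were DESeq2 (1.55, adjusted p = 0.0363), RLE factors (1.54, adjusted p = 0.0487) and limma voom (1.86, adjusted p = 0.00408). For PHGDH, PSAT1 and MTHFD1L, the genes whose hypoxia response was lower, the TIFM response differed from parental cells by -0.20 ± 0.20, 0.03 ± 0.17 and 0.06 ± 0.12 in clone B and by -0.27 ± 0.20, -0.15 ± 0.17 and 0.21 ± 0.12 in clone A, and none passed edgeR's test; limma voom called PSAT1 (-0.27, adjusted p = 0.041) and MTHFD1L (0.19, adjusted p = 0.0446) in clone A.

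In normoxia both clones had more PHGDH and PSAT1 transcript than parental cells. PHGDH had 80.7, 88.8 and 83.0 CPM in clone B, against 29, 34.9 and 24 CPM in parental cells (log2 1.52 ± 0.15, adjusted p = 7.98e-09). In clone A it had 239, 226 and 222 CPM, against the same parental libraries (2.97 ± 0.15, adjusted p = 5.34e-14), a fitted ratio of 7.81. PSAT1 had 242, 254 and 242 CPM in clone B and 503, 496 and 492 CPM in clone A, against 135, 142 and 122 CPM in parental cells. No clone library overlapped with a parental one, and the log2 differences were 0.89 ± 0.12 in clone B (adjusted p = 2.11e-06) and 1.91 ± 0.12 in clone A (adjusted p = 3.39e-12). In all, 2 of the 9 genes were higher and 1 lower in clone B, where 13.2% and 13.3% of tested genes were, and 6 were higher and 0 lower in clone A, where 15.9% and 15.8% were. The 4 other genes higher in clone A were SHMT2 (134, 124 and 117 CPM, against 55.5, 67.5 and 45.7 CPM in parental cells, log2 1.15 ± 0.19), MTHFD1L (194, 185 and 176 CPM, against 99.5, 109.7 and 93.2 CPM, 0.88 ± 0.09), MTHFD2 (179, 189 and 181 CPM, against 96.1, 108 and 97.3 CPM, 0.86 ± 0.12) and PSPH (113, 109 and 110.2 CPM, against 75.2, 83.8 and 74.0 CPM, 0.51 ± 0.12). All 4 stood apart from parental cells, with adjusted p between 1.36e-08 and 0.00182. In clone B the same 4 genes had log2 differences of 0.40, 0.10, 0.28 and -0.18 and did not pass edgeR's test, whereas limma voom called all 4 in those directions (adjusted p between 7.41e-06 and 0.0179). SHMT1 was lower in clone B, with 19.8, 21 and 18.6 CPM, against 27.9, 31.2 and 22.9 CPM in parental cells (-0.47 ± 0.14, adjusted p = 0.0159), and lost its call without parental normoxia replicate 2 or clone B normoxia replicate 3 (up to 0.103). MTHFD1 did not pass edgeR's test in either clone (log2 -0.19 ± 0.13 in clone B and -0.04 ± 0.13 in clone A), though limma voom called it lower in clone B (-0.16, adjusted p = 0.00778).

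**Figure D3:**
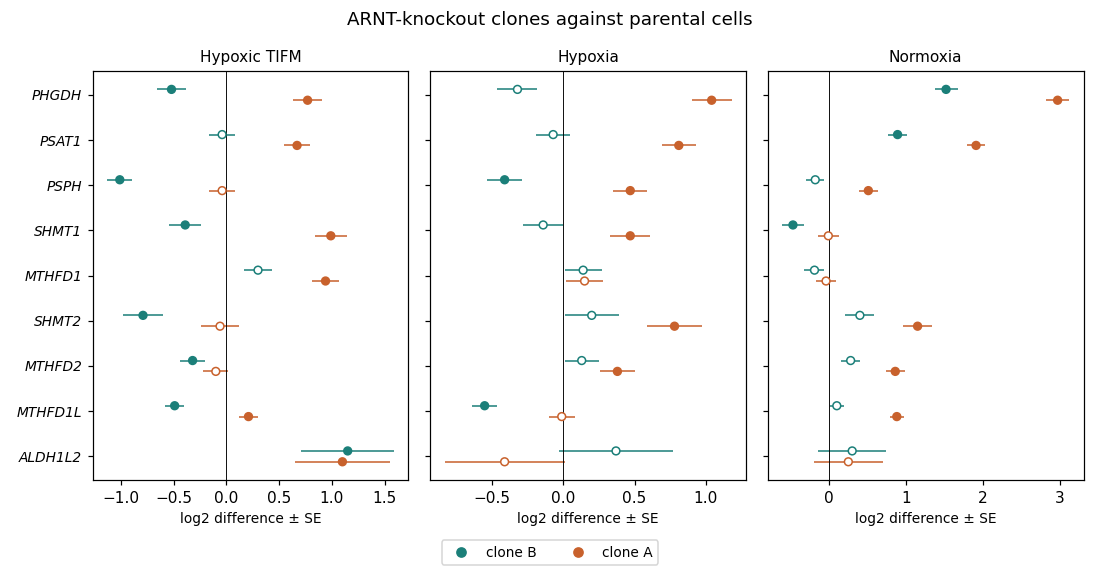
Log2 difference of clone B and clone A from parental cells in hypoxic TIFM, hypoxia and normoxia for the 9 genes; points are fitted values, bars the SE, and filled points passed the test. PHGDH is higher than in parental cells in both clones in normoxia, and in hypoxic TIFM it is higher in clone A (0.77) and lower in clone B (-0.52).

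In hypoxia, neither PHGDH nor PSAT1 passed the test as higher in clone B than in parental cells. PHGDH had 69.3, 73.3 and 73.5 CPM in clone B, against 91.8, 80.4 and 98.0 CPM in parental cells, lower in every library without a call (log2 -0.32 ± 0.14, adjusted p = 0.0841), though limma voom and edgeR on only the libraries compared called it lower (adjusted p of 0.002 and 0.00265). PSAT1 differed by -0.07 ± 0.12 (adjusted p = 0.696). Clone B had less of 2 of the 9 genes and more of 0, where 19% of tested genes were lower and 16.9% higher. MTHFD1L had 102, 103 and 102 CPM in clone B, against 155, 142 and 155 CPM in parental cells (-0.55 ± 0.09, adjusted p = 1.54e-05). PSPH had 50.1, 63.7 and 61.3 CPM in clone B, against 76.8, 75.1 and 80.0 CPM in parental cells (-0.41 ± 0.12, adjusted p = 0.0101), a call lost without clone B hypoxia replicate 1 (adjusted p = 0.0791). Clone A had more of 6 of the 9 genes and less of 0 (20.5% and 20.9% of tested genes). PHGDH was at 173, 189 and 195 CPM in clone A, against 91.8, 80.4 and 98.0 CPM in parental cells (1.04 ± 0.14, adjusted p = 1.94e-06), and PSAT1 was 0.81 ± 0.12 higher (adjusted p = 4.75e-06). SHMT2 (0.78 ± 0.19), PSPH (0.47 ± 0.12), SHMT1 (0.47 ± 0.14) and MTHFD2 (0.38 ± 0.12) were also higher in clone A. Without clone A hypoxia replicate 1 the values were 1.09 for PHGDH, 0.97 for PSAT1, 0.93 for SHMT2, 0.51 for PSPH and 0.53 for MTHFD2. SHMT1 lost its call without that library (0.39, adjusted p = 0.0529), whereas MTHFD1 gained one (0.33, adjusted p = 0.0142, against 0.15 with all libraries). MTHFD2, whose libraries overlapped, lost its call without parental hypoxia replicate 2 or clone A hypoxia replicate 2 or 3 (up to 0.1).

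In hypoxic TIFM PHGDH, SHMT1 and MTHFD1L were called lower in clone B and higher in clone A than in parental cells. Only for PHGDH did both calls hold whichever library was left out. Clone B had less of 6 genes and more of 1 (25.4% and 22.1% of tested genes), and clone A had more of 6 and less of 0 (30.9% and 30.7%). PHGDH had 161, 187 and 178 CPM in clone B and 309, 487 and 499 CPM in clone A, against 239, 294 and 224 CPM in parental cells, so no group overlapped. Its log2 difference from parental cells was -0.52 ± 0.14 in clone B (adjusted p = 0.00394) and 0.77 ± 0.14 in clone A (adjusted p = 4.72e-05; 0.97 without clone A TIFM replicate 1). PSPH was at 50.4, 63.3 and 61.2 CPM in clone B, against 115, 123 and 115 CPM in parental cells (-1.01 ± 0.12, adjusted p = 1.96e-07), a fitted ratio of 0.495. SHMT2 was at 43.0, 58.8 and 53.3 CPM in clone B, against 80.9, 107 and 79.3 CPM (-0.79 ± 0.19, adjusted p = 0.00115), and MTHFD1L differed by -0.49 ± 0.09 on the log2 scale (adjusted p = 4.96e-05). These groups did not overlap. SHMT1 (-0.39 ± 0.15, adjusted p = 0.0318) and MTHFD2 (-0.32 ± 0.12, adjusted p = 0.032) were also lower in clone B. SHMT1 lost its call without parental TIFM replicate 2 or 3 or clone B TIFM replicate 1 (up to 0.165), MTHFD2 without parental TIFM replicate 1 or 3 or clone B TIFM replicate 3 (up to 0.168), and both with only the libraries compared (0.0756 and 0.0935). MTHFD1 was 0.30 ± 0.13 higher in clone B and missed the threshold (adjusted p = 0.0544); it passed with the replicate number as a block (0.29, adjusted p = 0.0477), with DESeq2 (adjusted p = 0.0396), with RLE factors (0.0457) and with limma voom (0.00142).

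Clone A had more of the 2 cytosolic folate enzymes than parental cells in hypoxic TIFM. MTHFD1 was at 283, 304 and 332 CPM in clone A, against 165, 141 and 173 CPM in parental cells (log2 0.94 ± 0.13, adjusted p = 5.56e-07), and SHMT1 at 26.7, 37.9 and 34.5 CPM, against 15.2, 18.0 and 16.8 CPM (0.99 ± 0.15, adjusted p = 2.28e-06). Neither overlapped with parental cells, and PSAT1 was higher as well (0.67 ± 0.12, adjusted p = 3.06e-05). Without clone A TIFM replicate 1 the values were 0.99 for MTHFD1, 1.12 for SHMT1 and 0.74 for PSAT1. MTHFD1L was higher by 0.21 ± 0.09 (adjusted p = 0.0429), a call lost without parental TIFM replicate 1 or 2 or clone A TIFM replicate 2 or 3 (up to 0.142), with no filter on low counts (0.0967) and with only the libraries compared (0.443). The TMM factors there were 0.7773 to 0.8905 in clone A and 0.9533 to 0.9697 in parental cells. The MTHFD1L difference was not tested without such factors. ALDH1L2 had 1.05, 0.895 and 0.755 CPM in clone B and 0.736, 1.37 and 0.494 CPM in clone A, against 0.419, 0.534 and 0.259 CPM in parental cells. The log2 differences of 1.15 ± 0.44 in clone B (adjusted p = 0.0353) and 1.10 ± 0.45 in clone A (adjusted p = 0.0373) rest on 7 to 33 counts a library. The clone B call was lost without parental TIFM replicate 1 or 3 or clone B TIFM replicate 1 or 2 (up to 0.13), and the clone A call without parental TIFM replicate 1 or 3 or clone A TIFM replicate 2 (up to 0.288) and with only the libraries compared (0.103).

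Clone B had less of most of these transcripts than clone A in each condition. It was lower in 7 of the 9 genes in hypoxic TIFM, 6 in hypoxia and 7 in normoxia, and higher in 0. Of all tested genes 29.4%, 12.2% and 9.83% were lower, and 26.7%, 12.9% and 11.7% higher, in the same order. The median log2 difference of the 9 was -0.71 in hypoxic TIFM, -0.58 in hypoxia and -0.69 in normoxia, against 0.01, -0.03 and -0.03 over all tested genes. PHGDH, PSAT1, PSPH, SHMT1, SHMT2 and MTHFD1L were lower in clone B in all 3 conditions. PHGDH differed by -1.30 ± 0.14 in hypoxic TIFM, -1.37 ± 0.15 in hypoxia and -1.44 ± 0.15 in normoxia, with no overlap in any of them. SHMT1 differed by -1.38 ± 0.15 in hypoxic TIFM and by -0.61 ± 0.14 in hypoxia; its normoxia call (-0.46 ± 0.14, adjusted p = 0.024) was lost without clone A normoxia replicate 1 or 2 or clone B normoxia replicate 1 or 3 (up to 0.0974). SHMT2 differed by -0.72 ± 0.19 in hypoxic TIFM, where the groups overlapped (adjusted p = 0.00198, and 0.0758 with only the libraries compared), and by -0.75 ± 0.19 in normoxia. Its hypoxia call (-0.58 ± 0.19, adjusted p = 0.0222) was lost without clone A hypoxia replicate 2 or 3 or clone B hypoxia replicate 1 or 2 (up to 0.121). MTHFD1 was lower in clone B in hypoxic TIFM (-0.64 ± 0.13, adjusted p = 0.000139), and MTHFD2 in normoxia (-0.59 ± 0.12, adjusted p = 0.000704). Without clone A hypoxia replicate 1 MTHFD2 was also called lower in hypoxia (-0.40, adjusted p = 0.0121).

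The balance of mitochondrial to cytosolic folate transcripts was described by ratios of counts per kilobase of exon within a library. MTHFD1L over MTHFD1 was 3.10, 3.52 and 3.08 in hypoxic TIFM and 2.47, 2.26 and 2.42 in hypoxia, against 1.01, 0.976 and 1.02 in normoxia in parental cells. The parental conditions did not overlap. In clone B the ratio averaged 1.87 ± 0.154 in hypoxic TIFM, 1.47 ± 0.0707 in hypoxia and 1.23 ± 0.0357 in normoxia (SD, n = 3 each). In clone A it averaged 1.94 ± 0.12, 2.19 ± 0.301 and 1.89 ± 0.0452 in the same order. Replicate 1 of clone A in hypoxia was at 2.53 and the others at 2.03 and 2.0. The means of each clone spanned a narrower range than those of parental cells. SHMT2 over SHMT1 averaged 8.02 ± 0.939 in hypoxic TIFM, 3.97 ± 0.286 in hypoxia and 3.08 ± 0.15 in normoxia in parental cells. In clone A the same ratio averaged 3.86 ± 1.01 in hypoxic TIFM, 4.99 ± 1.42 in hypoxia and 6.93 ± 0.101 in normoxia, with the normoxia libraries above all others; in hypoxia replicate 1 was at 3.39 and the others at 5.49 and 6.10. In hypoxic TIFM replicate 3 was at 5.03 and the others at 3.25 and 3.32. In clone B it averaged 6.10 ± 0.413, 5.14 ± 0.938 and 5.66 ± 0.199, and the 3 conditions overlapped. Lengths of the longest transcript in place of all exons scale each ratio by 1 factor in all groups, with 4.30, 2.13 and 1.65 for SHMT2 over SHMT1 in parental cells. These ratios are a description without a test.

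**Figure D4:**
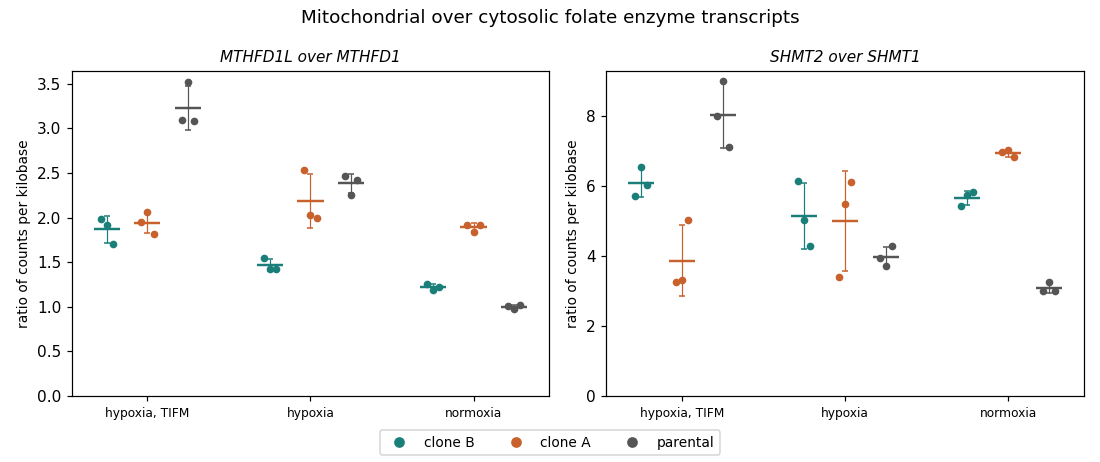
Ratio of counts per kilobase of exon within each library for MTHFD1L over MTHFD1 (left) and SHMT2 over SHMT1 (right), y axes from 0; points are libraries, horizontal bars the mean and whiskers the SD of 3 libraries. In parental cells both ratios are highest in hypoxic TIFM (3.23 and 8.02), whereas SHMT2 over SHMT1 in clone A is highest in normoxia at 6.93.

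Other genes of the pathway were counted by lists, to be read against the shares of all tested genes. With TIFM 25.9% rose and 27.9% fell in clone B, 33% and 34.2% in clone A, and 21.8% and 20.4% in parental cells, and with hypoxia in parental cells 15.4% rose and 14.9% fell. Of 8 tested serine and glycine transport genes, 4 rose and 1 fell with TIFM in parental cells, and 4 rose and 3 fell in each clone. SLC1A4, a transporter of serine and alanine, rose by 1.77 ± 0.14 in clone B, 2.13 ± 0.14 in clone A and 2.44 ± 0.14 in parental cells. SLC1A5, a transporter of glutamine and other neutral amino acids, rose by 1.47 ± 0.15, 2.52 ± 0.15 and 1.67 ± 0.15 in the same order. SFXN3, a mitochondrial serine carrier, fell by 1.55 ± 0.15 in clone B and 1.04 ± 0.15 in clone A. With hypoxia in parental cells 4 of the 8 rose and 1 fell, led by the glycine transporter SLC6A9 (1.28 ± 0.18) and SFXN3 (1.15 ± 0.15). Of 6 tested genes of folate transport and retention, 2 rose with TIFM in clone B, 3 in clone A and 2 in parental cells, and 1, in clone A, fell. SLC19A1, the reduced folate carrier, rose in all 3 genotypes, by 1.29 ± 0.18, 1.87 ± 0.18 and 1.27 ± 0.18.

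Among 8 other folate enzymes, TIFM raised 3, 5 and 3 and lowered 2, 2 and 2 in clone B, clone A and parental cells, where 25.9%, 33% and 21.8% of all tested genes rose and 27.9%, 34.2% and 20.4% fell. GART, which uses a folate carbon unit in purine synthesis, rose by 0.97 ± 0.11 in clone B, 1.72 ± 0.11 in clone A and 0.69 ± 0.11 in parental cells. MTFMT, the mitochondrial methionyl-tRNA formyltransferase, fell by 1.47 ± 0.14, 1.54 ± 0.15 and 1.05 ± 0.14 in the same order. With hypoxia in parental cells 4 of the 8 fell and 1 rose, where 14.9% and 15.4% of all tested genes did, and TYMS, thymidylate synthase, fell by 0.67 ± 0.11. Of 8 methionine cycle genes, 3 fell and 1 rose with hypoxia in parental cells, against the same shares of all tested genes (14.9% and 15.4%). MAT2A, which makes S-adenosylmethionine, fell with hypoxia by 0.60 ± 0.13 in clone B, 0.77 ± 0.13 in clone A and 1.16 ± 0.13 in parental cells. With TIFM 1 rose and 3 fell in clone B, 3 rose and 3 fell in clone A, and 1 rose and 2 fell in parental cells; AHCYL1, a homologue of adenosylhomocysteinase, fell by 1.22 ± 0.09, 1.22 ± 0.09 and 1.16 ± 0.09. The glycine cleavage system had 2 tested genes of 4, and GLDC, its decarboxylase, fell with hypoxia in parental cells (-1.0 ± 0.27) and with TIFM in clone B (-1.19 ± 0.28) and clone A (-0.98 ± 0.26). Of 14 genes for other uses of serine and glycine, TIFM raised 3, 7 and 6 and lowered 4, 4 and 4 in clone B, clone A and parental cells. SRR, which makes D-serine, rose by 1.75 ± 0.14, 1.72 ± 0.14 and 0.97 ± 0.14. CBS, which condenses serine with homocysteine, rose by 1.34 ± 0.17 with hypoxia in parental cells, where 3 of the 14 rose and 1 fell.

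Of 8 known regulators of these enzymes, 7 rose with TIFM in clone B, 6 in clone A and 7 in parental cells, and 0 fell, where 25.9%, 33% and 21.8% of all tested genes rose. ATF4 had 571, 638 and 708 CPM in TIFM, against 219.9, 260.4 and 271 CPM in regular medium in clone B (log2 1.35 ± 0.13). In parental cells ATF4 had 488, 602 and 535 CPM in TIFM, against 212, 211 and 226 CPM in regular medium (1.32 ± 0.13). With hypoxia in parental cells 4 of the 8 rose (15.4% of tested genes), ATF4 by 1.00 ± 0.13 to 216 CPM. The ATF4 transcript thus stood higher in each of these conditions than in its comparator, with no overlap. In clone A ATF4 rose by 1.65 ± 0.13 with TIFM. Its changes with hypoxia in clone B (0.33 ± 0.13) and clone A (0.09 ± 0.13) did not pass. MYC rose with TIFM by 0.81 ± 0.13 in clone B, 2.43 ± 0.14 in clone A and 0.75 ± 0.13 in parental cells. In normoxia 6 of the 8 were higher and 1 lower in clone B than in parental cells (13.2% and 13.3% of tested genes). In clone A 5 were higher and 1 lower (15.9% and 15.8%). MYC was higher in clone B (0.62 ± 0.13) and clone A (0.51 ± 0.13) in normoxia. The lower gene was NFE2L2 in both clone B (-0.36 ± 0.11) and clone A (-0.29 ± 0.11). The part of these regulators in the results was not tested. In normoxia ATF4 was at 199.6, 205 and 194 CPM in clone B and 390.1, 387 and 387 CPM in clone A, against 105, 115 and 104 CPM in parental cells (0.89 ± 0.13 and 1.85 ± 0.13). Its hypoxia response differed from that of parental cells by -0.68 ± 0.18 in clone B (adjusted p = 0.0277, up to 0.0883 when 1 of 12 libraries was left out, which ended the call in 8 cases) and by -0.91 ± 0.18 in clone A (adjusted p = 0.00217). ASNS, asparagine synthetase and a well-known ATF4 target outside the pathway, differed in hypoxia response by -1.55 ± 0.18 in clone B and -1.80 ± 0.18 in clone A.

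The genes whose pattern over the 9 group means of log2 CPM was most like that of each member were looked up among 10512 genes. For PSAT1 they were ASNS (Pearson r = 0.994), RPL31 (0.988) and ATF4 (0.983), and for PHGDH TRIB3 (0.98), CARS1 (0.958) and OSBPL10 (0.955). For MTHFD2 the nearest were FJX1 (0.98) and SLC1A4 (0.977), for MTHFD1L LRATD2 (0.977) and for MTHFD1 STIP1 (0.988). PSPH was nearest to INPP5B (0.979), SHMT1 to MREG (0.963) and SHMT2 to RPL21 (0.902). Among the members the highest value was 0.946, between PSAT1 and MTHFD2. These correlations are descriptions over 9 group means that share genotypes and conditions, chosen as the highest of many, and they carry no test. ALDH1L2 was below 5 CPM in every group and was not compared.

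The 5 tested genes on either side of each member on its chromosome were also compared between genotypes in normoxia. All 10 neighbours of PSPH on chromosome 7 had a log2 difference below 0 in clone B, with 5 called lower and a median of -0.40, against 3 of 10 below 0 in clone A with a median of 0.14. The PSPH difference itself was -0.18 in clone B and 0.51 in clone A. Around SHMT2 on chromosome 12 the median was 0.69 in clone B, with 5 of 10 called higher, and 0.32 in clone A, with 3 called higher. Around MTHFD2 on chromosome 2 it was 0.09 in clone B, with 1 of 10 called higher, and 0.36 in clone A, with 5 called higher. Around ALDH1L2, also on chromosome 12, it was -0.19 in clone B, with 3 of 10 called lower, and -0.40 in clone A, with 5 called lower and 9 below 0. For the other 5 members the neighbours' median lay between -0.09 and 0.23 in clone B and between -0.21 and -0.03 in clone A. Of all tested genes 13.2% were called higher and 13.3% lower in clone B, and 15.9% and 15.8% in clone A. Copy number was not measured.

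Parts of some members' exons overlap other genes, and whether counting used strand is not stated, so such reads cannot be told apart. MTHFD2 shared 33.2% of its exon bases with genes on the opposite strand, of which SLC4A5 had 0 counts in all 27 libraries and AC006030.1 had 0.704 to 2.42 CPM. MTHFD1 shared 11.0%, mostly with AL122035.2, which was absent from the count table. SHMT2 shared 9.51% of its exon bases, SHMT1 3.69% and ALDH1L2 1.7%, and PHGDH, PSAT1, PSPH and MTHFD1L shared none. NDUFA4L2, which overlaps SHMT2 by 33 bases, had 0.123 to 5.63 CPM. The annotation names pseudogenes after PSAT1 (4), MTHFD2 (7), PSPH, SHMT1 and MTHFD1 (1 each). These copies were all absent from the count table, and how reads shared with them were assigned is not stated.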

How the data were processed

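The authors deposited raw read counts per Ensembl gene for 27 polyA RNA libraries; per the submitters' processing notes the reads were aligned with HISAT2 to GRCh38 and counted with featureCounts, with versions and settings not given in the sources used here. Symbols were found for 21479 of 21487 identifiers, and places and exon lengths come from GENCODE annotation of GRCh38. Genes were filtered with filterByExpr (minimum count 10, minimum total count 15), library sizes scaled with TMM, and all 27 libraries fitted together with 1 coefficient for each of 9 groups in edgeR 4.0.16 (R 4.3.3) by robust quasi-likelihood. Each of 19 contrasts was adjusted by Benjamini-Hochberg over 13943 genes, with calls at 0.05; the common dispersion was 0.0199, and depth was 26057022 to 38341713 counts. The procedure was tested on simulated data that had the common dispersion in all genes and groups. Such data cannot show how the single fit behaves where the spread differs between conditions. Alternatives were DESeq2 1.42.0, limma 3.58.1 (voom with sample weights), RLE factors, no filter, only the libraries compared, a replicate block, and leaving out each library.

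The 9 genes, the pathway lists and the rule for named genes were chosen with earlier results of these data known. The rule names all 9 members, at most 2 called genes per list and direction above 5 CPM, and for each member the 3 most alike genes (log2 of CPM plus 1). The lists cover folate transport, other folate enzymes, glycine cleavage, serine and glycine transport, other uses of serine and glycine, the methionine cycle, known regulators, Panc1 identity and other cell types. Results for some listed genes are not reported here.

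The labels number the replicates without saying what a number marks. Deviations from group means of same-numbered libraries correlated over 0.1 in every pair in 2 of 15 comparisons: clone B against parental cells in hypoxic TIFM (0.213, 0.32 and 0.266) and clone B against clone A in hypoxic TIFM (0.579, 0.262 and 0.657). The values reported come from the fit without the block, and the blocked value stands beside a result of these comparisons where it changes the call. Replicate libraries differed by more than sampling noise, with chi-square per degree of freedom between 4.38 and 195.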

Additional observations from a re-analysis of the deposited data

Results flagged for a closer look

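These results stand here because the response of a clone differed from that of parental cells by a direct test of the difference in edgeR; values are differences in log2 response. The hypoxia response was lower in clone B for PHGDH (-1.85), PSAT1 (-0.96) and MTHFD1L (-0.66), and in clone A for PHGDH (-1.92), PSAT1 (-1.09) and MTHFD1L (-0.88). The TIFM response was lower in clone B for PSPH (-0.61) and SHMT2 (-0.98). In clone A it was lower for PSPH (-0.51), SHMT2 (-0.84) and MTHFD2 (-0.48), and higher for MTHFD1 (0.79) and SHMT1 (0.51). Leaving out 1 library ended the TIFM call in clone B of PSPH in 6 of 12 cases and of SHMT2 in 2 of 12. In clone A it ended that of SHMT1 in 9 of 12 and of MTHFD2 in 6 of 12. With only the libraries compared, MTHFD1 alone kept its TIFM call in clone A. Single outlying libraries were not tested for in groups of 3.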

How the results depend on the processing

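Of 171 tests (9 genes in 19 comparisons) 89 were called, and 70 of these kept their call without any 1 library, 19 lost it without some library and 11 lost it under another setting; 0 changed direction. The number of the 9 genes called moved by more than 1.5 times as follows. With limma voom it was 5 for hypoxia in clone A, 4 for hypoxia in clone B, 8 for TIFM in clone A, 8 for clone B against parental cells in normoxia, 4 for the same in hypoxia, 6 for the difference in hypoxia response of either clone, and 8 for the difference in TIFM response of clone A. With only the libraries compared it was 4 for hypoxia in clone B, 6 and 4 for clone B against parental cells in normoxia and hypoxia, 5 for the hypoxia response of clone A and 1 for its TIFM response. Leaving out 1 library gave 0 to 3 for hypoxia in clone A, 1 to 2 for clone B against parental cells in hypoxia, 3 to 6 for the TIFM response of clone A and 0 to 2 for that of clone B. The cause was not tested. With all libraries those counts were 3 for hypoxia in clone A, 0 in clone B, 5 for TIFM in clone A, 3 and 2 for clone B against parental cells, 3 for either hypoxia response, and 5 and 2 for the TIFM responses of clone A and clone B. Each left-out library of clone B against parental cells in hypoxic TIFM left 5 or 6 of 7 calls.

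Over all genes, voom called 1.1 to 6.63 times and only the libraries compared 0.486 to 3.93 times as many as reported; DESeq2 called 1.01 to 1.49 times as many. Gaps were found in the hypoxia response of clone B (4377 with voom and 2592 with only the libraries compared, against 660) and of clone A (5430 and 2656, against 869), in hypoxia in clone B (5198 and 4242, against 1297), and in clone B against clone A in hypoxic TIFM (3802 with only the libraries compared, against 7823). The other counts past 1.5 times were, with voom, 8915 against 4212, 6569 against 3097 (hypoxia in parental cells and clone A), 8489 against 3697 and 8893 against 4408 (clone B and clone A in normoxia), 7928 against 5006 and 8968 against 5770 (the same in hypoxia), 7253 against 3002 and 6378 against 3506 (clone B against clone A in normoxia and hypoxia), and 4810 against 1450 and 8335 against 5426 (TIFM responses of clone B and clone A). With only the libraries compared they were 6804 against 4212, 4860 against 3097, 5710 against 3697 (clone B in normoxia), 6834 against 3002 (clone B against clone A in normoxia), 5402 against 8597 (clone A in hypoxic TIFM) and 3539 against 5426 (TIFM response of clone A).

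With the replicate number as a block, MTHFD1 in clone B against parental cells in hypoxic TIFM passed (0.29, adjusted p = 0.0477), and no other call of the 171 changed; over all genes the block gave 1.01 to 1.11 times as many calls. In the other 13 comparisons at least 1 same-numbered pair did not correlate over 0.1, which does not exclude that same-numbered libraries share something. For clone B against parental cells in normoxia, for example, the values were -0.0171, 0.575 and 0.578.

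The single fit pools a spread that was widest in hypoxic TIFM (22%, against 6.97% in normoxia). Its p-values can thus be too small where TIFM libraries are compared and too large in normoxia. Clone B against clone A had 7823 calls in hypoxic TIFM, and 3802 with only the libraries compared. In normoxia these counts were 3002 and 6834. Precision is limited to 3 libraries a group, and for ALDH1L2 by 6 to 34 counts a library.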
